A study of Bos taurus with 30 samples.

Results

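The genes of TGF-beta, BMP and activin signalling were followed in bovine endometrial epithelial and stromal cells that had been cultured together in a microfluidic device. The set was given by name and holds 35 genes, all of which had a row in the count tables, out of 27607 genes counted in each of 30 libraries. By role, it comprises 9 ligands, 10 receptors, 5 antagonists or binding proteins, 8 SMAD or SMAD-repressor genes and 3 ID genes.

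The cells were primary mixtures enriched for one cell type from the uteri of nonpregnant cows, not clonal lines. Epithelial cells lay in the upper chamber and stromal cells in the lower chamber, on either side of a porous membrane, for 72 hours under flow. The glucose experiment compared 5 mM with 50 mM of glucose. The insulin experiment compared vehicle with 1 ng/mL and 10 ng/mL of insulin, in medium that contained 5 mM of glucose. Each of the 10 groups held 3 biological replicates, so that 12 libraries came from the glucose experiment and 18 from the insulin experiment.

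Ligands of this superfamily are secreted and bind complexes of type I and type II serine/threonine kinase receptors. TGF-beta and activin receptors phosphorylate SMAD2 and SMAD3, BMP receptors phosphorylate SMAD1, SMAD5 and SMAD9, and both groups join SMAD4 to enter the nucleus. Follistatin and gremlin trap activins and BMPs outside the cell, SMAD6 and SMAD7 inhibit inside it, and the ID genes are direct BMP targets. In the endometrium, BMP2 and other members take part in decidualization and implantation, processes in which epithelium and stroma exchange secreted signals.

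Each library of the glucose experiment held 13493503 to 16647701 counted reads, and each of the insulin experiment 8826470 to 13214728. Levels are given as CPM, the read count scaled to a common library total, without correction for gene length, so levels were compared between libraries and not between genes. Of the 35 genes, 31 had at least 10 reads in every library. BMP6, BMP7, GREM1 and BAMBI fell below this in some, and 1 value in all, BAMBI in epithelial replicate 2 at 5 mM glucose, was 0 reads, which allows up to 0.222 CPM.

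The 24 epithelial markers, among them EPCAM and CDH1, summed to between 9847 and 17606 CPM in epithelial libraries, and in stromal libraries of the insulin experiment to between 5.00 and 415 CPM. The 22 stromal markers, among them VIM and COL1A1, summed to between 1275 and 7784 CPM in epithelial libraries and between 25154 and 93843 CPM in stromal ones. For other cells, leukocyte marker sums were at most 430 CPM and endothelial sums at most 77.2 CPM. Smooth muscle and pericyte sums lay between 67.8 and 442 CPM in epithelial libraries and between 538 and 4047 CPM in stromal ones. The lists differ in their number of genes, so sums were not compared between lists. Stromal replicate 3 at 50 mM glucose stood apart, with an epithelial sum of 6574 CPM and a stromal sum of 25154 CPM. Epithelial replicate 2 at 5 mM glucose also stood apart, because 27 of the 35 genes had their highest or lowest epithelial level of the glucose experiment there, as did 73.3% of all genes tested. The comparisons that use these libraries are also given without them.

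**Figure D1:**
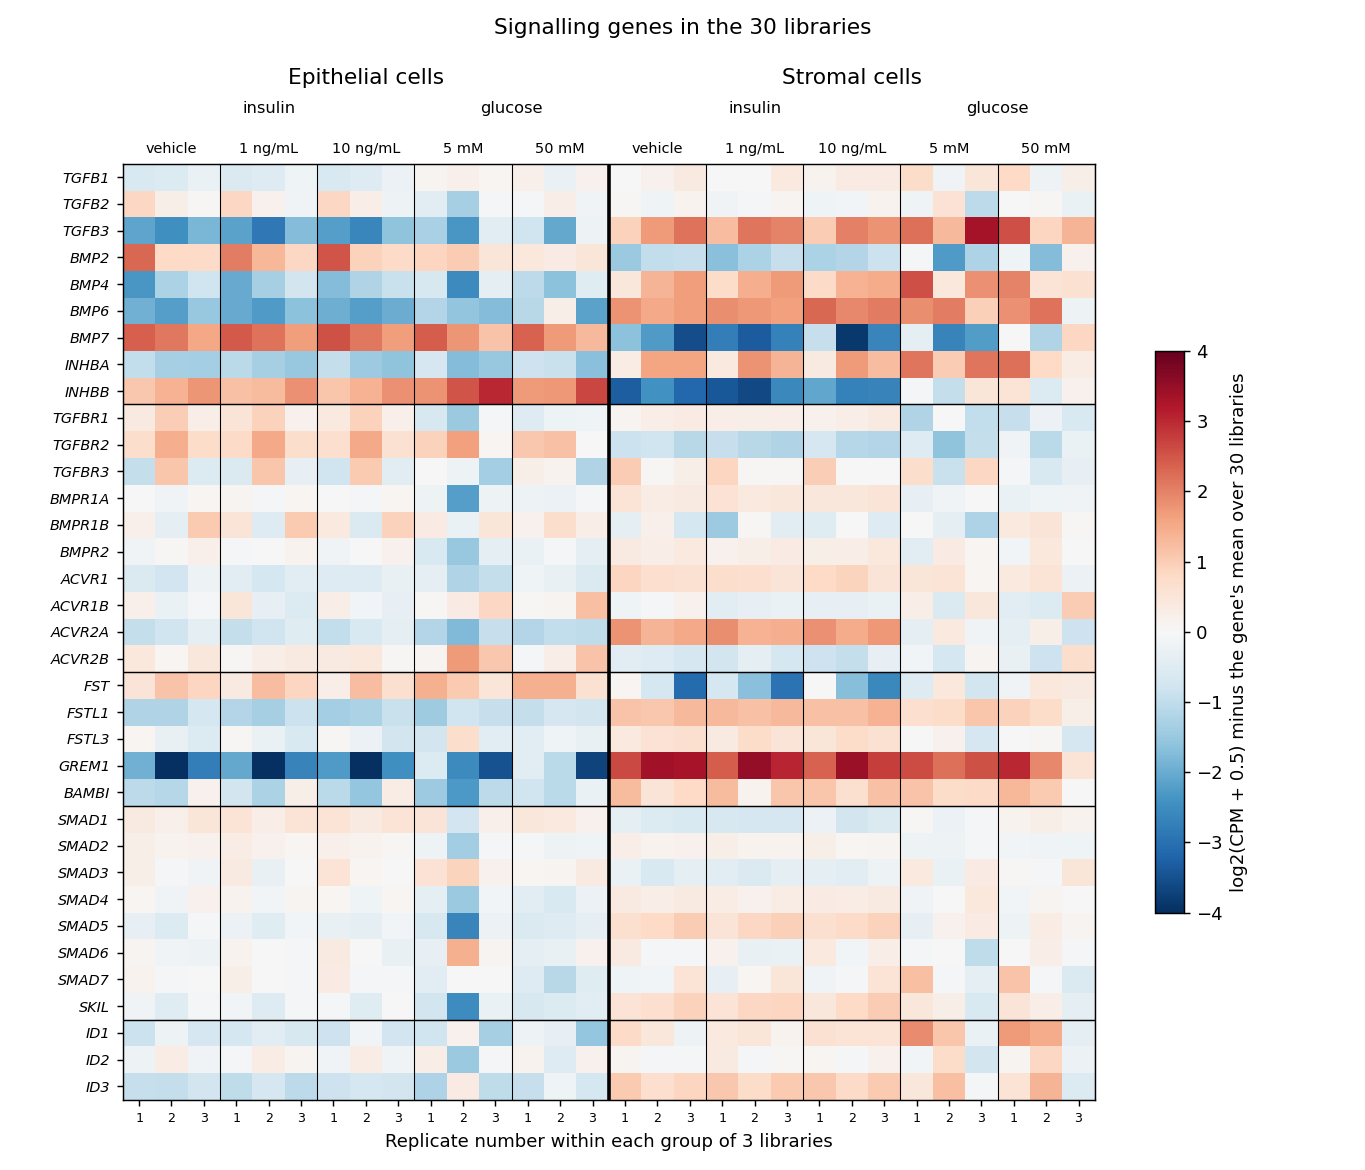
Level of the 35 genes (rows, by role) in the 30 libraries (columns, by cell type, treatment and replicate), as log2(CPM + 0.5) minus the gene's mean over all libraries. The ligands TGFB3, BMP4, BMP6 and INHBA with the antagonist GREM1 are high in stromal columns, BMP2, BMP7 and INHBB in epithelial columns, and epithelial replicate 2 at 5 mM differs from its neighbours.

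The largest differences among these genes were between the cell types. In the vehicle group of the insulin experiment, 24 of the 35 genes (68.6%) differed between epithelial and stromal cells. The level was higher in epithelial cells for 6 of them and in stromal cells for 18. Genes named as called here had an adjusted p-value below 0.05 in the quasi-likelihood test of edgeR together with a log2 fold change beyond 0.1. The standard error of a log2 fold change is given as SE. Of all protein-coding genes tested, 55.9% were called, 28.2% with the higher level in epithelial cells and 27.8% with the higher level in stromal cells. The median log2 fold change, epithelial over stromal, was -0.38 over the 35 genes and -0.00223 over all genes. The median size of the change, regardless of direction, was 1.02 and 0.62. All 24 called genes moved one way in 3 of 3 replicate pairs. In bulk RNA, fewer cells of a type and less RNA per cell cannot be told apart.

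The ligands divided by cell type. Of 9, 5 were higher in stromal cells (TGFB1, TGFB3, BMP4, BMP6 and INHBA), 3 were higher in epithelial cells (BMP2, BMP7 and INHBB) and TGFB2 was not called.

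INHBB (ENSBTAG00000049058) encodes the activin beta B subunit. In the vehicle group its epithelial libraries held 48.1, 59.8 and 76.3 CPM, and its stromal libraries 1.84, 3.71 and 2.06 CPM. INHBA (ENSBTAG00000048508), which encodes the beta A subunit, was the other way round, with 117, 91.3 and 88.4 CPM in epithelial and 280, 689 and 686 CPM in stromal libraries. The groups did not overlap for either gene. The log2 fold change, epithelial over stromal, was 4.51 (SE 0.25, adjusted p = 0.000936) for INHBB and -2.47 (SE 0.46, adjusted p = 0.0103) for INHBA.

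BMP7 (ENSBTAG00000015362) and BMP2 (ENSBTAG00000005111) were the BMP ligands of the epithelial side. BMP7 stood at 43.6, 36.3 and 24.0 CPM in epithelial and 2.19, 1.27 and 0.217 CPM in stromal vehicle libraries. BMP2 stood at 211, 73.6 and 73.2 CPM against 14.7, 21.3 and 22.3 CPM. The lowest epithelial library exceeded the highest stromal library for both. The log2 fold changes were 4.82 (SE 0.33, adjusted p = 0.00111) for BMP7 and 2.34 (SE 0.54, adjusted p = 0.0201) for BMP2. Epithelial replicate 1 was far above the others for BMP2, at 176 to 247 CPM over the 3 insulin groups, and without replicate 1 the log2 fold change was 1.60, still called.

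BMP4 (ENSBTAG00000003835) and BMP6 (ENSBTAG00000019234) were the BMP ligands of the stromal side. BMP4 had 1.02, 2.69 and 3.85 CPM in epithelial and 9.88, 19.2 and 23.9 CPM in stromal libraries. BMP6 had 0.235, 0.103 and 0.469 CPM against 9.18, 7.42 and 8.45 CPM. Each stromal library was above each epithelial library. The log2 fold changes were -2.96 (SE 0.18, adjusted p = 0.000973) and -4.99 (SE 0.38, adjusted p = 0.00131), the second against epithelial libraries with few reads.

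The 3 TGF-beta ligands differed among themselves. TGFB3 (ENSBTAG00000012004) had 5.25, 4.03 and 6.47 CPM in epithelial and 46, 80.4 and 110 CPM in stromal vehicle libraries, a log2 fold change of -3.91 (SE 0.31, adjusted p = 0.00142). TGFB1 (ENSBTAG00000020457) had 50.6, 52.3 and 63.8 CPM against 76.5, 86.4 and 97.5 CPM, a smaller change of -0.72 (SE 0.11, adjusted p = 0.00528). TGFB2 (ENSBTAG00000005359) had 136, 90.6 and 77.8 CPM against 77.8, 67.3 and 83.5 CPM. Its groups overlapped, and its log2 fold change of 0.30 (SE 0.24, adjusted p = 0.329) was not called.

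**Figure D2:**
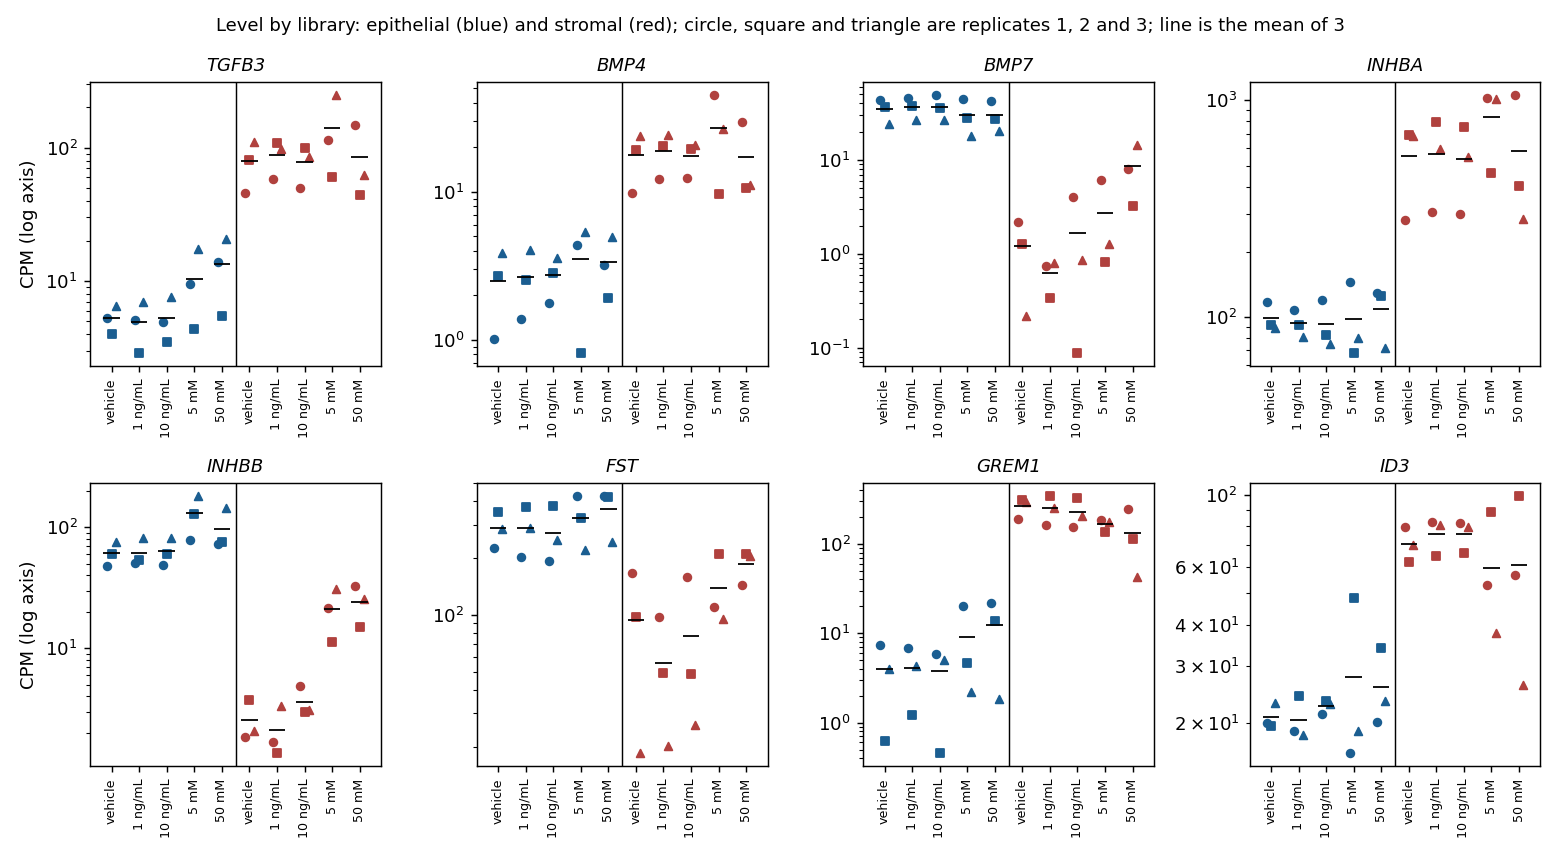
Level in CPM (log axis) of 8 genes in each library, by group, with epithelial cells in blue and stromal cells in red, replicates 1, 2 and 3 as circle, square and triangle, and the mean of 3 as a line. The cell types do not overlap in the insulin groups for any of these genes. In the glucose groups they overlap for ID3, and the distance between their medians is smaller for each gene but INHBA.

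Among the 10 receptors, 2 were higher in epithelial cells, 4 were higher in stromal cells and 4 were not called. TGFBR2 (ENSBTAG00000019832), the type II receptor of TGF-beta, had 284, 482 and 289 CPM in epithelial and 94.9, 101 and 80.4 CPM in stromal vehicle libraries, with no overlap. Its log2 fold change was 1.82 (SE 0.15, adjusted p = 0.00156). Its type I partner TGFBR1 had 202, 308 and 189 CPM against 169, 187 and 197 CPM and was not called (0.23, SE 0.19, adjusted p = 0.365).

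The activin type II receptors went opposite ways. ACVR2A (ENSBTAG00000018114) had 20.9, 23.5 and 32.3 CPM in epithelial and 145, 108 and 119 CPM in stromal libraries, a log2 fold change of -2.37 (SE 0.16, adjusted p = 0.00113). ACVR2B (ENSBTAG00000018105) had 8.62, 6.61 and 8.72 CPM against 4.46, 4.25 and 3.79 CPM, and 0.85 (SE 0.21, adjusted p = 0.0230). The call on ACVR2B was lost without replicate 1 or replicate 3 and at 10 ng/mL of insulin, where its log2 fold change was 0.97 (adjusted p = 0.0538).

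ACVR1, a type I receptor for BMPs and activins, had 28.1, 24.3 and 36.1 CPM in epithelial and 76.9, 67.1 and 63.8 CPM in stromal libraries (log2 fold change -1.32, SE 0.14, adjusted p = 0.00244). The BMP receptors BMPR1A (-0.50) and BMPR2 (-0.38) were higher in stromal cells by less. The call on BMPR2 was lost when any replicate was left out. BMPR1B, ACVR1B and the co-receptor TGFBR3 (betaglycan) were not called. Without replicate 2, BMPR1B was called, and its log2 fold change moved from 0.53 to 1.16 (adjusted p = 0.0443). TGFBR3 was high in epithelial replicate 2 alone, at 49.4 to 52.1 CPM over the insulin groups against 12.1 to 18.8 CPM in the other epithelial replicates, and without replicate 2 its log2 fold change moved from -0.66 to -1.48 and was called.

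Of the 5 antagonists and binding proteins, 4 were higher in stromal cells. GREM1 (ENSBTAG00000050495), the BMP antagonist gremlin, had 7.45, 0.620 and 3.94 CPM in epithelial and 188, 308 and 295 CPM in stromal vehicle libraries. The groups lay far apart. The log2 fold change was -6.26 (SE 0.86, adjusted p = 0.00436), the largest of the 35 genes in this comparison. In these epithelial libraries the stromal markers stood at a median of 4.44%, 1.24% and 11.6% of their stromal level. Their part in the epithelial GREM1 level was not tested.

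Follistatin (FST, ENSBTAG00000003329), which binds activins, was the only one of the 5 with a higher epithelial level. Its vehicle libraries held 227, 352 and 287 CPM in epithelial and 166, 97.1 and 18.4 CPM in stromal cells. The groups did not overlap, but the stromal libraries differed among themselves more than the epithelial ones. The log2 fold change of 1.96 (SE 0.68, adjusted p = 0.0629) was not called in the vehicle group, and those of 2.49 at 1 ng/mL (adjusted p = 0.0100) and 2.10 at 10 ng/mL (adjusted p = 0.0463) were. FST was called in the vehicle group with DESeq2 (2.00, adjusted p = 0.0339), with all libraries in 1 fit (1.87, adjusted p = 0.0149) and without replicate 1 (2.74, adjusted p = 0.0494). Without replicate 3 its log2 fold change was 1.15 (adjusted p = 0.0750).

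FSTL1, a secreted follistatin-like glycoprotein, had 263, 263 and 378 CPM in epithelial and 1351, 1305 and 1518 CPM in stromal vehicle libraries (log2 fold change -2.30, SE 0.13, adjusted p = 0.000936). FSTL3, which also binds activins, had a log2 fold change of -0.87 and BAMBI, a pseudoreceptor that blocks signalling, one of -1.96. Both calls were lost when single replicates were left out, FSTL3 without replicate 2 or 3 and BAMBI without replicate 1 or 2. BAMBI also rested on 0.340 to 2.52 CPM in the 9 epithelial libraries of the insulin experiment.

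Inside the cell, the log2 fold changes of the 8 SMAD and SMAD-repressor genes ran from -1.21 to 0.79. Of these genes, 1 was higher in epithelial cells, 3 were higher in stromal cells and 4 were not called. SMAD1 (ENSBTAG00000002835) had 45.4, 40.4 and 49.1 CPM in epithelial and 27.2, 24.0 and 22.6 CPM in stromal vehicle libraries (log2 fold change 0.79, SE 0.11, adjusted p = 0.00418). SMAD5 (ENSBTAG00000055062), which the same receptors phosphorylate, had 111, 94.4 and 132 CPM against 217, 242 and 280 CPM (-1.21, SE 0.14, adjusted p = 0.00309). The 2 BMP SMADs were thus called in opposite directions.

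The co-SMAD SMAD4 (-0.37) and SKIL, a repressor of SMAD transcription (-1.04), were higher in stromal cells. The SMAD4 call was lost with DESeq2, without the low-count filter and whenever a replicate was left out. Of the TGF-beta and activin SMADs, SMAD2 stood at -0.08 (SE 0.10) and SMAD3 at 0.34 (SE 0.13). Neither SMAD2 nor SMAD3 was called, nor were the inhibitory SMAD6 (-0.23) and SMAD7 (-0.14). Without replicate 3, SMAD3 was called, at 0.50 (adjusted p = 0.0418). For SMAD2, the 9 epithelial libraries of the insulin experiment ranged from 78.1 to 93.6 CPM and the 9 stromal libraries from 80.5 to 90.8 CPM.

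Of the ID genes, ID1 and ID3 were higher in stromal cells and ID2 was not called. ID3 (ENSBTAG00000030425) had 20.0, 19.6 and 23.0 CPM in epithelial and 79.7, 62.1 and 70.3 CPM in stromal vehicle libraries. This was the lowest adjusted p-value of the 35 genes in the vehicle group, with a log2 fold change of -1.84 (SE 0.10, adjusted p = 0.000914). ID1 had 11.4, 18.3 and 13.0 CPM against 35.9, 29.1 and 18.3 CPM, and its groups nearly touched (-1.02, SE 0.22, adjusted p = 0.0165). ID2 had 49.0, 70.4 and 51.8 CPM against 61.4, 53.8 and 53.5 CPM, with overlap (-0.07, SE 0.15).

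The 2 groups given insulin held the same contrast in other libraries with the same replicate numbers. At 1 ng/mL, 25 of the 35 genes were called against 59.4% of all genes, 7 on the epithelial side (29.9%) and 18 on the stromal side (29.5%). At 10 ng/mL, 24 were called against 54.9%, 6 on the epithelial side (27.3%) and 18 on the stromal side (27.6%). In all, 23 genes were called in each of the 3 insulin groups, a count whose share over all genes was not computed. Over the 9 epithelial and 9 stromal libraries of the insulin experiment, 22 of the 35 genes (62.9%) did not overlap, against 52.7% of all genes, 7 with the higher level in epithelial and 15 in stromal cells.

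The glucose experiment used other libraries and gave fewer calls. At 5 mM, 13 of the 35 genes (37.1%) were called against 21.5% of all genes. The epithelial level was the higher one for 2 (10.8% of all genes) and the stromal level for 11 (10.7%). DESeq2 called 18, a count given without its share of all genes. Without replicate 2, whose epithelial library stood apart, 14 were called against 24.3% of all genes, among them all 13. Of the 24 genes called in the vehicle group, 23 had the same direction at 5 mM and 13 were also called (54.2%). Among all protein-coding genes called in the vehicle group, 88.3% had the same direction and 35.4% were also called. The exception in direction was the fitted value of SMAD1 (-0.15, SE 0.33, not called). Its levels were 50.6, 20.2 and 40.5 CPM in epithelial and 36.4, 29.5 and 33.9 CPM in stromal libraries, so that the epithelial mean was the higher one (37.1 against 33.3 CPM), as was the epithelial level in 2 of 3 pairs. Without replicate 2 the log2 fold change of SMAD1 was 0.11 and was not called, and all 24 genes had the direction of the vehicle group.

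The genes with the largest changes in the vehicle group were again among those called at 5 mM. TGFB3 had a log2 fold change of -3.95, BMP4 of -3.27, BMP6 of -4.26, INHBA of -3.30 and GREM1 of -4.97. On the epithelial side, BMP7 had 3.64 and INHBB 2.42. Without replicate 2 these values were -3.96 for TGFB3, -3.08 for BMP4, -4.0 for BMP6, -3.5 for INHBA, -4.90 for GREM1, 3.03 for BMP7 and 1.96 for INHBB, all called. The stromal level of INHBB was 21.6, 11.2 and 31.1 CPM in these libraries, above all 9 stromal libraries of the insulin experiment, which ranged from 1.36 to 4.84 CPM. Experiment and medium cannot be told apart in that contrast, which was not tested. Epithelial markers summed to 732, 329 and 80.5 CPM in the stromal 5 mM libraries and to between 5.00 and 415 CPM in those of the insulin experiment. Their part in the INHBB levels was not tested.

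At 50 mM, 10 genes were called (28.6%) against 17.6% of all genes, 1 with the higher level in epithelial (6.57%) and 9 in stromal cells (11%). This count depended on the libraries used. Without replicate 3, whose stromal library held epithelial markers at a median of 59.7% of their epithelial level, 20 genes were called against 28.4% of all genes. The other stromal libraries at 50 mM held these markers at medians of 13.6% and 4.99%. Without replicate 1, 0 genes were called, as were 0% of all genes. DESeq2 called 18 with all 3 replicates, a count given without its share of all genes. GREM1 had 21.7, 13.8 and 1.83 CPM in epithelial and 243, 113 and 43.1 CPM in stromal libraries, the lowest stromal level being that of replicate 3. BMP7 had 42.9, 27.1 and 20.3 CPM against 8.01, 3.21 and 14.4 CPM, the highest stromal level being that of the same library. The part of the epithelial markers in these levels was not tested.

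Called in all 5 comparisons of the cell types were 9 genes, the ligands TGFB3, BMP4, BMP6, INHBA and INHBB, the receptor ACVR1, the binding proteins FSTL1 and GREM1, and ID1. Called in none with all 3 replicates were 10 genes, TGFB2, the receptors TGFBR1, TGFBR3, BMPR1B and ACVR1B, SMAD2, SMAD3, SMAD6, SMAD7 and ID2. The shares of all genes called in all 5 or in none were not computed, so these counts have no background. In the 6 epithelial and 6 stromal libraries of the glucose experiment, 12 of the 35 genes (34.3%) did not overlap, against 23.6% of all genes. In a comparison chosen after the values were seen, 12 genes did not overlap without epithelial replicate 2 at 5 mM (29.6% of all genes), 14 without stromal replicate 3 at 50 mM (34.6%) and 15 without both (42.9%, against 44.4% of all genes).

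**Figure D3:**
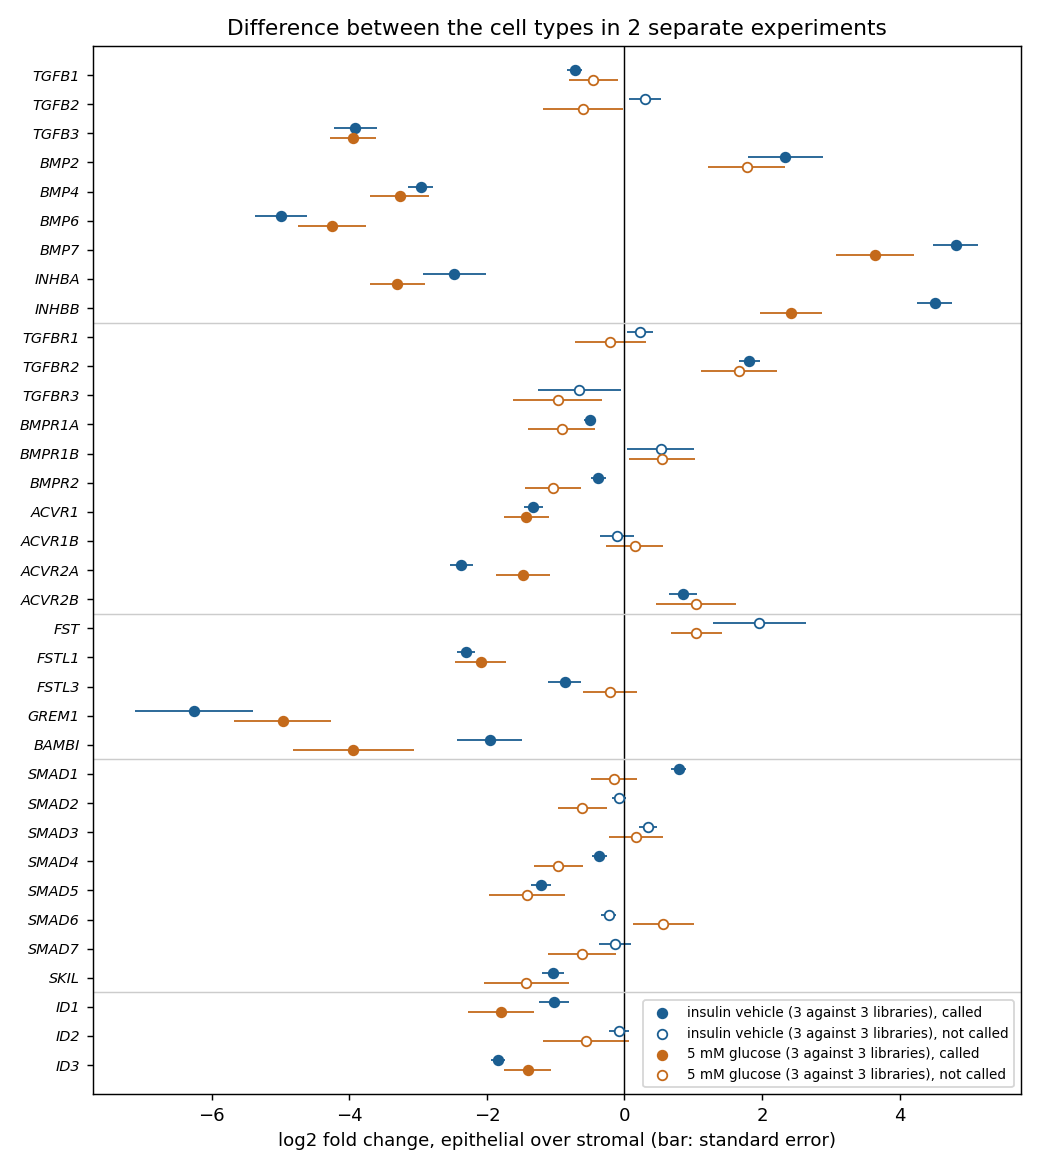
Log2 fold change, epithelial over stromal, of the 35 genes in the vehicle group of the insulin experiment (blue) and at 5 mM glucose (orange), with standard errors as bars and filled points for called genes. GREM1 and BMP6 lie farthest to the left and BMP7 and INHBB farthest to the right, the orange bars are mostly longer, and SMAD1 is the called gene whose 2 points lie on opposite sides of 0.

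Other genes of the pathway were counted in 6 lists of 83 symbols, of which 64 were found and 55 were tested in the vehicle group. Of these, 13 were higher in epithelial and 27 in stromal cells (72.7% called). Of all genes, 55.9% were called, 28.2% on the epithelial and 27.8% on the stromal side, and the counts of single lists that follow have the same background. All 4 other antagonists tested were higher in stromal cells. These were noggin (NOG), chordin (CHRD, -1.48), the chordin-like CHRDL1 (-6.13) and TWSG1 (-0.50). NOG had 1 read over the 3 epithelial and 167 reads over the 3 stromal libraries, a ratio of 174 (95% interval 30.9 to 6925, counting error only).

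Of 9 genes for storage and release of latent TGF-beta, 6 were higher in stromal and 1 in epithelial cells. EMILIN1 had 6.43, 2.17 and 20.1 CPM in epithelial and 162, 165 and 155 CPM in stromal libraries (-4.51). LRRC32, which presents latent TGF-beta on the cell surface, had -4.21, asporin (ASPN), a matrix proteoglycan, -2.54 and the latent binding protein LTBP2 -1.97.

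SMAD9, the third BMP SMAD, had 1.57, 0.413 and 4.78 CPM in epithelial and 42.6, 50.2 and 62.2 CPM in stromal libraries (-4.76, SE 0.50, adjusted p = 0.00241). Of 17 other intracellular regulators, 7 were higher in epithelial and 3 in stromal cells. The corepressor TGIF1 (2.13) and PMEPA1, a SMAD-binding inhibitor (1.70), were on the epithelial side and SKI (-1.54) on the stromal side.

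Of 16 other target genes, 2 were higher in epithelial and 9 in stromal cells. ACTA2, smooth muscle actin, had 71.3, 17.8 and 129 CPM against 2756, 2469 and 4310 CPM (-5.86). The BMP target ATOH8 had a log2 fold change of -5.69. The homeobox gene MSX1 was opposite, with 289, 281 and 225 CPM in epithelial and 7.35, 21.2 and 9.21 CPM in stromal libraries (4.44).

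Among the other receptors and co-receptors, 2 were higher in epithelial and 3 in stromal cells. Endoglin (ENG, -3.91) and RGMB (-1.54) were higher in stromal and AMHR2 (1.40), the anti-Mullerian hormone receptor, in epithelial cells. RGMA had 2 epithelial against 122 stromal reads, a ratio of 63.7 (95% interval 17.2 to 532). Among the other ligands, GDF7 (-6.65) and GDF11 (-1.05) were higher in stromal and INHBE (2.57) in epithelial cells.

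**Figure D4:**
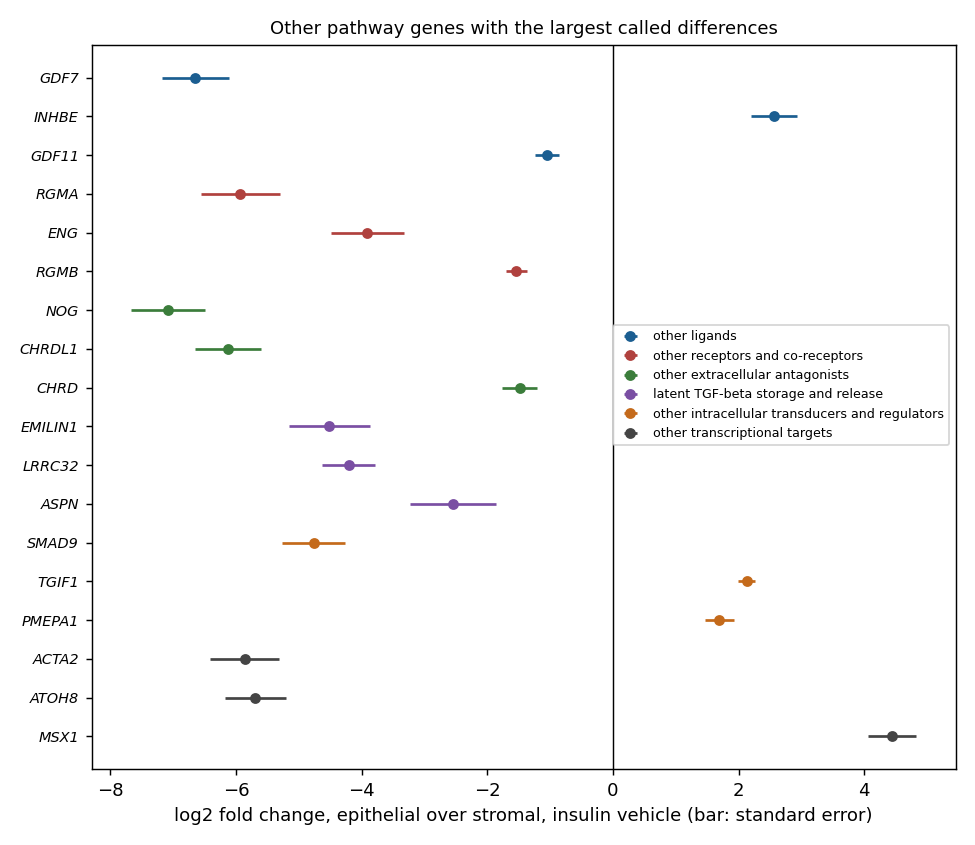
Log2 fold change, epithelial over stromal, in the vehicle group of the insulin experiment for the 3 genes with the largest called change in each of 6 further pathway lists (colours), with standard errors as bars. NOG, RGMA, GDF7 and ATOH8 had 0 reads in at least 1 epithelial library, so their fitted values depend on the prior count, and INHBE, TGIF1, PMEPA1 and MSX1 lie on the epithelial side.

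Within a cell type, glucose and insulin gave no calls among these genes with all 3 replicates. In each of the 2 glucose comparisons and 6 insulin comparisons within a cell type, edgeR's quasi-likelihood test called 0 of the 33 to 35 genes tested, and DESeq2 called 0. Comparisons within an experiment share libraries, and each is given by its own values. Of the other pathway genes, edgeR and DESeq2 each called 0 of the 50 to 56 tested. In epithelial cells at 50 against 5 mM glucose, 8 of 52 had an unadjusted p under 0.05 (15.4%, against 1.54% of all genes). In the other comparisons 2 to 7 did, with the largest shares at 10 ng/mL of insulin against vehicle, 14% in epithelial cells (6.78% of all genes) and 11.1% in stromal cells (2.73% of all genes).

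In epithelial cells, 50 mM against 5 mM glucose gave 0 genes with an unadjusted p under 0.05, against 1.54% of all genes, and 0% of all genes were called. The log2 fold changes ran from -0.56 to 1.70, with BAMBI at the upper end, where 1 library had 0 reads. Of the 18 genes with the higher stromal level in the vehicle group, 15 had positive values. Their median log2 ratios, 50 mM over 5 mM, were 0.10, 0.88 and -0.03 in replicate pairs 1, 2 and 3. In these pairs 15, 14 and 9 of the 18 were positive. The share among all genes with the higher stromal level was not computed. Epithelial replicate 2 at 5 mM lay outside all 5 other epithelial libraries for SMAD5, at 21.6 CPM against 88.5 to 117 CPM. It lay outside for BMPR1A as well, at 11.0 CPM against 44.9 to 50.1 CPM, and for SMAD6, at 75.9 CPM against 21.2 to 31.5 CPM. SMAD2, at 28.9 CPM against 66.0 to 72.6 CPM, and SKIL, at 16.3 CPM against 57.1 to 79.1 CPM, were low there too.

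Without replicate 2, the values ran from -0.24 to 1.20, and again 0 of the 35 genes were called, where 1.65% of all genes were. That fit held only 2 replicate pairs. An unadjusted p under 0.05 was then found for 7 genes (20%, against 13.7% of all genes), all with higher values at 50 mM. These were BAMBI (1.20), TGFB3 (0.42), FSTL1 (0.35), ID3 (0.35), ACVR1 (0.32), FSTL3 (0.25) and BMPR2 (0.21). All 7 were among the genes with the higher stromal level in the vehicle group, of which 13 of 18 had positive values here. The share among all genes with the higher stromal level was not computed for this fit.

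Of the other pathway genes, 6 of 54 were called without replicate 2 (11.1%, against 1.65% of all genes), a comparison added after the values were seen. Its SE and adjusted p-values come from a fit with only 2 replicate pairs. INHBE, an inhibin beta subunit, had 3.13, 1.19 and 1.44 CPM at 5 mM and 0.245, 0.481 and 0.421 CPM at 50 mM, on at most 47 reads a library. Its log2 fold change without replicate 2 was -2.72 (SE 0.50, adjusted p = 0.0116). GDF15 (-0.52) was also lower at 50 mM. ACTA2 had 60.6, 27.6 and 10.6 CPM against 100.3, 266 and 16.8 CPM, and was higher at 50 mM without replicate 2 (0.74, SE 0.10, adjusted p = 0.00210), as were the actin-binding TAGLN (0.60) and the matrix protein TGFBI (0.60).

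The summed CPM of stromal markers was also higher at 50 mM in each epithelial pair, with 5806, 3427 and 2138 CPM at 5 mM and 7784, 6692 and 3076 CPM at 50 mM. By the median percent of their stromal level, pair 1 went the other way. These medians were 11.6%, 3.03% and 5.32% at 5 mM and 11.2%, 9.18% and 6.72% at 50 mM. The sums of smooth muscle and pericyte markers went from 168, 344 and 114 CPM to 243, 442 and 123 CPM. Their part in these differences was not tested.

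In stromal cells, the same comparison gave 3 genes with an unadjusted p under 0.05 (8.57% of the set, against 4.96% of all genes), all with higher values at 50 mM, and 0% of all genes were called. BMP7 had 6.06, 0.817 and 1.28 CPM at 5 mM and 8.01, 3.21 and 14.4 CPM at 50 mM (log2 fold change 1.82, SE 0.65, adjusted p = 0.696). TGFBR2 had 122, 56.8 and 89.5 CPM against 158, 82.8 and 143 CPM (0.47). BMPR1B had 8.73, 6.73 and 3.48 CPM against 11.8, 12.8 and 9.11 CPM (0.84). Values were higher at 50 mM in 3 of 3 pairs for each.

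BMP7 and TGFBR2 were genes with the higher epithelial level in the vehicle group, and epithelial markers were also higher at 50 mM in each stromal pair. Their sums were 732, 329 and 80.5 CPM at 5 mM and 1674, 1089 and 6574 CPM at 50 mM. Their part in the differences was not tested. Without replicate 3 the log2 fold changes were 0.90 for BMP7, 0.43 for TGFBR2 and 0.65 for BMPR1B. In that replicate the 18 genes with the higher stromal level in the vehicle group had a median log2 ratio, 50 mM over 5 mM, of -0.47, and in the other 2 pairs 0.06 and 0.02.

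In epithelial cells, 1 ng/mL of insulin against vehicle gave 0 genes with an unadjusted p under 0.05 (2.87% of all genes), and the log2 fold changes lay between -0.10 and 0.15. Here 0% of all genes were called. Without replicate 1, BMP2 was called at 0.31, as were 0.173% of all genes. At 10 ng/mL against vehicle, 5 genes had an unadjusted p under 0.05 (15.2%, against 6.78% of all genes), and 0.113% of all genes were called. The lowest adjusted p-value was that of SMAD3, with 75.6, 60.9 and 58.2 CPM in vehicle and 95.6, 68.1 and 63.7 CPM at 10 ng/mL (log2 fold change 0.21, SE 0.05, adjusted p = 0.177). It was higher in 3 of 3 pairs. The others were FSTL1 (-0.14), FST (-0.11), INHBA (-0.12) and BMP2 (0.12). Without replicate 2, FST (-0.22) and FSTL1 (-0.18) were called, as were 0.536% of all genes. At 10 against 1 ng/mL, SMAD3 alone had an unadjusted p under 0.05 (0.19, against 4.29% of all genes), and 0% of all genes were called.

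In stromal cells, 1 ng/mL against vehicle gave 5 such genes (14.7%, against 5.03% of all genes), and 0% of all genes were called. FST had 166, 97.1 and 18.4 CPM in vehicle and 97.6, 49.4 and 20.3 CPM at 1 ng/mL (log2 fold change -0.63, SE 0.13, adjusted p = 0.438). It was lower in 2 of 3 pairs. FST was called without the low-count filter (-0.63) and without replicate 3 (-0.83, together with TGFB3 at 0.42). Without replicate 3, 0.755% of all genes were called. The stromal vehicle library of replicate 2 held epithelial markers at 415 CPM against 7.29 CPM in its pair, and those of replicate 1 were 14.9 and 12.9 CPM. Their part in the FST values was not tested. TGFB3 (0.21), ACVR1B (-0.34), SMAD6 (-0.19) and ID3 (0.13) were the other genes.

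At 10 ng/mL against vehicle, BMP6 alone had an unadjusted p under 0.05 in stromal cells (2.86%, against 2.73% of all genes), and 0% of all genes were called. It had 9.18, 7.42 and 8.45 CPM in vehicle and 13.4, 10.0 and 11.2 CPM at 10 ng/mL, higher in 3 of 3 pairs with no overlap (log2 fold change 0.47, SE 0.11, adjusted p = 0.999). Without replicate 2, GREM1 was called at -0.41, as were 0.604% of all genes. At 10 against 1 ng/mL, 7 genes had an unadjusted p under 0.05 (20.6%, against 3.68% of all genes), and 0.0244% of all genes were called. These were INHBB (0.78), FST (0.35), BMP6 (0.34), SMAD6 (0.29), ID1 (0.20), GREM1 (-0.16) and TGFB3 (-0.20). INHBB had 1.67, 1.36 and 3.31 CPM at 1 ng/mL and 4.84, 2.98 and 3.07 CPM at 10 ng/mL, and FST 97.6, 49.4 and 20.3 CPM against 159, 48.7 and 25.9 CPM. Each was higher in 2 of 3 pairs. Epithelial markers, for which these stromal libraries had sums of 12.9, 7.29 and 10.1 CPM at 1 ng/mL, stood at 370, 5.00 and 38.8 CPM at 10 ng/mL. Their part in the differences was not tested. Without replicate 1 the log2 fold changes were 0.40 for INHBB and 0.13 for FST. FST was called there without the low-count filter (0.35) and without replicate 3 (0.34). Without replicate 3, 0.52% of all genes were called.

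**Figure D5:**
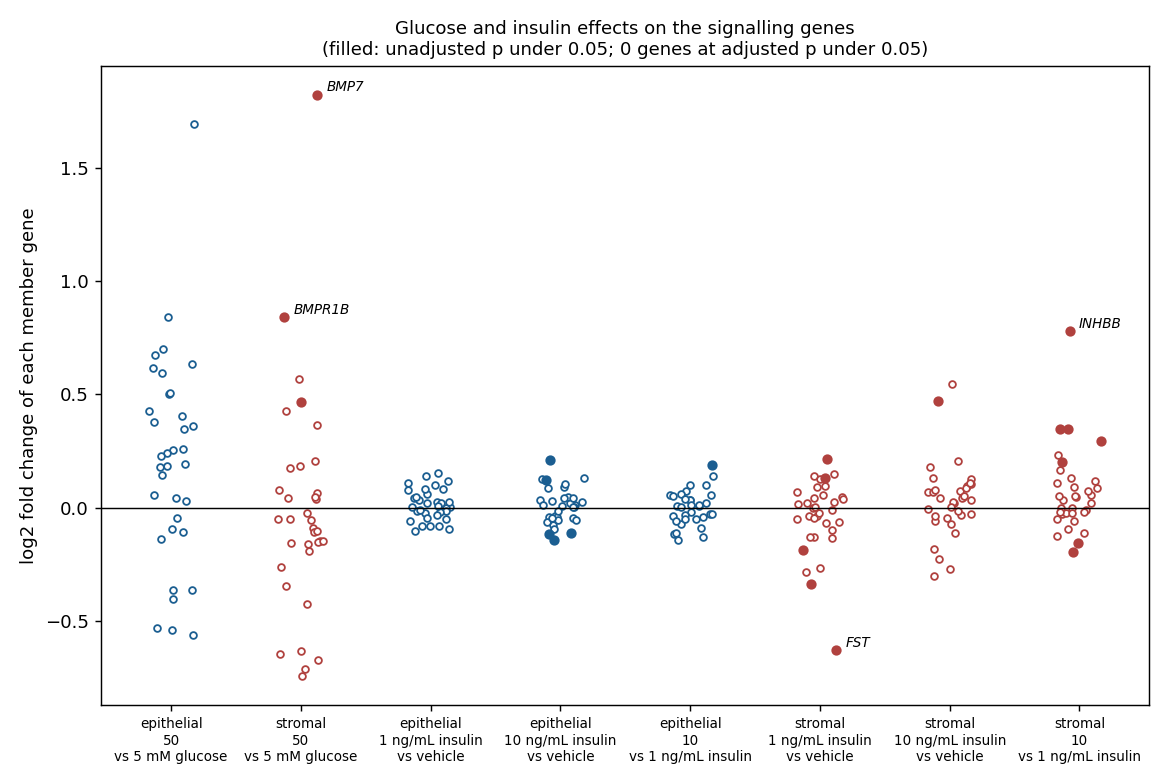
Log2 fold change of each tested gene in the 2 glucose and 6 insulin comparisons (columns), with epithelial cells in blue and stromal cells in red and filled points for an unadjusted p under 0.05. The points spread from -0.74 to 1.82 in the glucose columns and lie between -0.63 and 0.78 in the insulin columns, and no point passes the adjusted threshold.

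Whether the treatments acted differently in the 2 cell types was tested as a difference of effects, epithelial minus stromal. EdgeR's quasi-likelihood test and DESeq2 each called 0 of 35 genes for glucose, for 1 ng/mL and for 10 ng/mL of insulin, where 0%, 0.659% and 0% of all genes were called. Genes with an unadjusted p under 0.05 numbered 3, 5 and 1, against 7.65%, 6.69% and 4.05% of all genes. The lowest adjusted p-value was that of FST at 1 ng/mL (difference 0.63 on the log2 scale, SE 0.16, adjusted p = 0.126), which was called without replicate 3 (0.77) and without the low-count filter (0.61). Without replicate 3, 1.14% of all genes were called. For glucose, the genes were BMP7 (-1.79), BMP2 (-0.94) and ACVR1 (0.69). These values were -1.67, -0.82 and 0.54 without replicate 2 and -1.10, -0.79 and 0.60 without replicate 3. As given above, summed epithelial markers were higher at 50 mM in each stromal pair, as were summed stromal markers in each epithelial pair. The part of these markers in the differences of effects was not tested.

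Within each cell type of the insulin experiment, most of the variance of these genes lay between replicate numbers. In epithelial cells the replicate number held a median of 92.0% of a gene's variance of log2(CPM + 0.5) over the 9 libraries, against 72.5% over all genes, and insulin 1.84%, against 5.98% over all genes. In stromal cells it held 69.4%, against 59.0% over all genes, and insulin 10.1%, against 9.31% over all genes. INHBA in stromal cells is an example, with 280, 304 and 298 CPM in replicate 1 over vehicle, 1 and 10 ng/mL, and 547 to 795 CPM in the others. In 4 genes of the stromal cells, more lay between insulin groups than between replicate numbers, with 69.0% against 22% for ACVR1B, 68.8% against 24.7% for BMP6, 38.1% against 1.42% for INHBB and 11.2% against 3.92% for ACVR2B. In the same order, 8.96%, 6.48%, 60.4% and 84.9% lay in neither. In epithelial cells more lay between insulin groups for ACVR2B (4.54% against 0.919%) and ID3 (21.5% against 20.4%), with 94.5% and 58.1% in neither. The share of all genes with more variance between insulin groups than replicate numbers was not computed.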

How the data were processed

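RNA libraries were stranded and sequenced as 75-base single-end reads. The authors trimmed the reads, mapped them to the bovine assembly of Ensembl release 96 by Rsubread, and deposited raw counts of uniquely mapped reads per gene from featureCounts (tools named in the submitters' notes: FastQC, cutadapt, SAMtools, featureCounts, DESeq2, with versions not given in the sources used here). Uniquely mapped reads can undercount genes with near-identical copies. The authors' comparison tables also hold fold changes and p-values, which were not used. Only gene symbols and gene types were read from them.

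Counts of the 6 libraries of a comparison (12 for a difference of effects) were normalized with TMM, filtered with filterByExpr and tested with edgeR 4.0.16 (R 4.3.3, quasi-likelihood test, Benjamini-Hochberg adjustment over all tested genes), with the replicate number as a block because the study's methods state a paired design. Same-numbered libraries deviated together, with correlations over 0.1 for every pair in 11 of 13 comparisons. The lowest, 0.0343, was between cell types at 5 mM glucose. Counts of calls cover protein-coding genes. CPM used library totals. Alternatives were DESeq2 1.42.0, RLE factors, no filter, no block, all libraries in 1 fit, and each replicate left out. Scripts were tested on simulated data. All 35 genes were named, and from each further list at most 4 called genes with the largest change in the vehicle group, of which 1 is not reported here. The members and lists were chosen with earlier results of these data known. Replicates are biological by the series' design text. With the replicate block, p-values measure how differences within a replicate number vary from replicate to replicate. They do not measure the spread of levels between replicates. Intervals and limits for a count of 0 (3 reads) cover counting error only.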

Additional observations from a re-analysis of the deposited data

How the results depend on the processing

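Of the 24 calls between cell types in the vehicle group, 19 were kept under each of the 8 alternatives, and BMPR2, ACVR2B, FSTL3, BAMBI and SMAD4 lost theirs in some. At 50 mM glucose, the 10 calls became 18 with DESeq2, 4 with no replicate block and 0 to 20 with 1 replicate left out. The counts with DESeq2 and with no replicate block are given without their shares of all genes. With 1 replicate left out, 0% to 28.4% of all genes were called. The replicate block changed no other count of calls by over 1.5 times. With 1 replicate left out, calls in epithelial cells numbered 0 to 1 for 1 ng/mL against vehicle (0.0321% to 0.213% of all genes). For 10 ng/mL against vehicle they numbered 0 to 2 (0.0568% to 0.536% of all genes). In stromal cells they numbered 0 to 2, 0 to 1 and 0 to 1 for 1 ng/mL against vehicle, 10 ng/mL against vehicle and 10 against 1 ng/mL, and 0 to 1 for the difference of effects at 1 ng/mL. In the same order, 0.0325% to 0.755%, 0% to 0.604%, 0.185% to 0.52% and 0.0149% to 1.14% of all genes were called. Without the low-count filter, 1 gene was called in stromal cells at 1 ng/mL against vehicle, at 10 against 1 ng/mL, and in the difference of effects at 1 ng/mL. The counts without the filter are also given without their shares of all genes. The causes were not tested. With 1 replicate left out, uncalled genes changed sign between cell types in the vehicle group, over ranges of -1.48 to 0.0013 for TGFBR3, -0.016 to 1.16 for BMPR1B, -0.41 to 0.088 for ACVR1B, -0.41 to 0.18 for SMAD7 and -0.25 to 0.024 for ID2, as did SMAD1 at 5 mM glucose, over -0.34 to 0.11. None of the other pathway genes was called within a cell type with all 3 replicates. Without replicate 2, 6 were called in epithelial cells at 50 against 5 mM glucose (1.65% of all genes). In each other comparison within a cell type with 1 replicate left out, 0 to 2 were called (0% to 0.755% of all genes). Depth limited BMP6, BMP7, GREM1 and BAMBI, which had under 10 reads in some libraries.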
